A study of Mus musculus with 6 samples.

Results

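The hypoxia-response genes Hilpda, Ero1l, Slc2a1, Bnip3, Adm, Ndrg1, Egln3, Pdk1 and P4ha1 were followed through the cells of mouse pancreatic tumours. They are 9 of the 32285 genes counted, and each was found by its symbol. They were selected with earlier results of these data in view, so their levels and their differences between groups are given as descriptions and carry no test of their own. The tumours grew from KPC cells, a mouse pancreatic ductal adenocarcinoma line, placed in the pancreas of C57BL/6 mice aged 6 to 8 weeks and harvested 4 weeks later. Before injection the cells had received an empty vector, the group OE-Vector, or a construct for overexpression of mouse MLKL, the executor of necroptosis, the group OE-MLKL. Single-cell RNA-seq of 3′ transcript ends was made on 3 tumours of each group, and the matrices of OE-Vector 1 and OE-MLKL 1, 2 and 3 are described here, while OE-Vector 2 and 3 were not analysed here. With 1 OE-Vector tumour, a difference between the groups cannot be told apart from a difference between single tumours.

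The targeted gene did not follow the labels. In cancer cells Mlkl (chromosome 8, 111311797 to 111338177, minus strand, GRCm38) stood at 16.5 counts per 1000000 UMIs of the class (CPM) in the library labelled OE-Vector, with 8.59, 12.95 and 19.96 CPM in OE-MLKL 1, 2 and 3. The OE-Vector value thus lay inside the range of the libraries labelled OE-MLKL. Whether the construct carries the transcript end that is counted is not given in the sources used here, and Gm45712 lies over the same locus on the other strand. Every direction below is therefore between libraries as labelled.

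Cells answer falling oxygen mainly through the hypoxia-inducible factors (HIF). When oxygen is plentiful, prolyl hydroxylases of the EGLN family mark the HIF alpha subunit for destruction through VHL, and when it falls the subunit accumulates, pairs with ARNT and binds short hypoxia-response elements near its target genes. Egln3 is one of those hydroxylases and is itself a target, which makes it a feedback gene. Slc2a1 encodes a glucose transporter and Pdk1 a kinase that inhibits pyruvate dehydrogenase. Hilpda blocks the breakdown of stored lipid, and Bnip3 marks mitochondria for removal by autophagy. Ero1l passes electrons from disulfide formation in the endoplasmic reticulum, and P4ha1 hydroxylates the prolines of collagen. Adm is the secreted vasodilator adrenomedullin, and Ndrg1 is a cytoplasmic stress and differentiation protein often used as a hypoxia marker. Pancreatic ductal tumours are poorly perfused and known for low oxygen.

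The core of the hypoxia-response element, ACGTG or GCGTG on either strand, was looked for in the 250 bases before each RefSeq transcript start (GRCm38.p6), to show what the promoters of these genes have in common. All 8 members with a promoter entry held at least 1 core and 6 held 2 or more. Over all 27025 genes with an entry, 41.5% held a core and 18.7% held 2 or more. The entry for Ero1l carries its later symbol Ero1a. No entry was found for Ndrg1. One window of 25 bases is shown per gene on the strand of the gene, with the core in capitals; CACGT and CACGC are the cores as read when they lie on the opposite strand, and in Bnip3 overlapping cores were counted separately.
Hilpda: tggccagcggACGTGccccagggcg
Ero1l: cgcgccgctgCACGTccgcagggga
Slc2a1: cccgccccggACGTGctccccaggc
Bnip3: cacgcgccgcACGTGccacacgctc
Adm: caaatctgacCACGCccaccgtccg
Egln3: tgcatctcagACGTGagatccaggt
Pdk1: gcctacatggGCGTGtctttaacca
P4ha1: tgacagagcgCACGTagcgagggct

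The Hilpda window lies at chr6:29272573-29272597 on the plus strand, 43 bases before the later of its starts. The Ero1l window lies at chr14:45318621-45318645 on the minus strand, 63 bases before the RefSeq start. Those of Slc2a1 (chr4:119108699-119108723, plus strand) and P4ha1 (chr10:59323270-59323294, plus strand) lie 36 and 16 bases before it. The Bnip3 window is at chr7:138909599-138909623 on the minus strand and the Adm window at chr7:110627593-110627617 on the plus strand, 107 and 54 bases before their starts. The Egln3 window (chr12:54204089-54204113, minus strand) is the farthest of those shown, at 229 bases, and the Pdk1 window (chr2:71873136-71873160, plus strand) lies at 78 bases. By the gene coordinates given below, the Hilpda and Ero1l windows lie inside the gene, and the Slc2a1 window spans the gene start. A match is a description of letters and no binding was measured.

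The libraries held 150591289 to 169978362 unique molecular identifiers (UMIs), each UMI standing for a captured transcript. Of 74545 cells that passed the filters, 61981 fell into 1 of 4 classes by their marker UMIs, 2999 that carried markers of more than 1 class were left out, and 9565 met the limits of no class. The gate took 21952 cancer cells, 9547 macrophages, 27511 neutrophils and 2971 T cells. Each class had its own markers on top: Gm49504 and Fst in cancer cells, Ms4a7 and Mrc1 in macrophages, Retnlg and S100a9 in neutrophils, Trbc2 and Cd3g in T cells. The summed cancer markers stood at 2734 to 4511 CPM in cancer cells, against 315 to 445 CPM in neutrophils, 208 to 338 CPM in macrophages and 119 to 281 CPM in T cells. Any 2 libraries shared 44 to 90 cell barcodes. Depth moved with the label: the median cell of OE-Vector 1 held 25421 UMIs among cancer cells and 8726 among macrophages, against 12194 to 20260 and 4155 to 7067 in the OE-MLKL libraries. Among neutrophils the medians were 1209 UMIs in OE-Vector 1 and 742, 777 and 1419 UMIs in OE-MLKL 1, 2 and 3. Levels are therefore given as CPM of the summed UMIs of a class, and shares of cells after thinning every cell to the same number of UMIs.

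The 9 genes were found in every class. Averaged over the 4 libraries, the summed level was 784 CPM in cancer cells, 764 CPM in neutrophils, 523 CPM in macrophages and 295 CPM in T cells. In cancer cells the sum stood at 737 CPM in OE-Vector 1 and at 824, 666.5 and 908 CPM in OE-MLKL 1, 2 and 3. In neutrophils it stood at 1379 CPM in OE-Vector 1 and at 493, 522 and 660.2 CPM in the OE-MLKL libraries. Cancer cells thus led in every OE-MLKL library and neutrophils led in OE-Vector 1, but the lead of cancer cells rested on Ndrg1. Without Ndrg1 the sum was 278, 232 and 441 CPM in cancer cells of OE-MLKL 1, 2 and 3 against 390.3, 431 and 554 CPM in neutrophils, and the mean over the 4 libraries was 659 CPM in neutrophils, 465 CPM in macrophages, 347 CPM in cancer cells and 249.7 CPM in T cells. Macrophages held 876 CPM in OE-Vector 1 against 427, 313 and 477 CPM, and T cells 394 CPM against 238, 228 and 318 CPM, so that in all classes but cancer cells OE-Vector 1 lay above the 3 OE-MLKL libraries. The order of the classes was not the same for each gene, and within nearly every pair of neighbouring classes the ranges over libraries overlapped.

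Free RNA, read from barcodes with at most 100 UMIs, carried the same genes at 854 CPM in OE-Vector 1 and at 750.0, 611.5 and 619 CPM in OE-MLKL 1, 2 and 3. The sum in T cells lay under this level in all 4 libraries, the sum in macrophages in the 3 OE-MLKL libraries, and the sum in cancer cells in OE-Vector 1. In neutrophils the sum exceeded free RNA in OE-Vector 1 and in OE-MLKL 3, and lay below it in OE-MLKL 1 and 2. The part of free RNA in the differences between the labels was not tested.

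**Figure D1:**
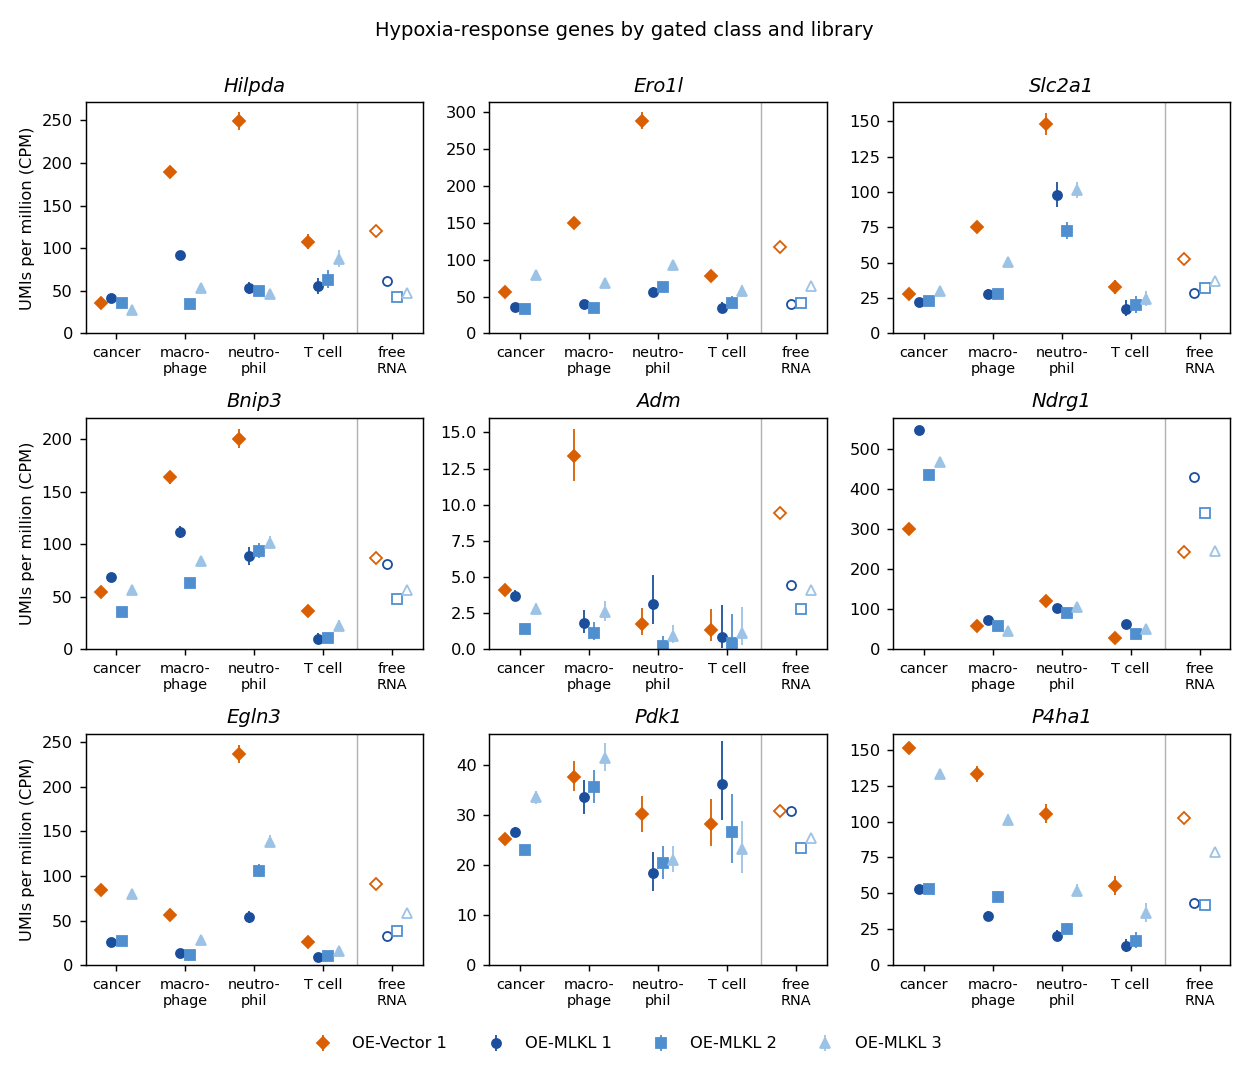
Level of each gene in CPM (vertical axis, starting at 0, one scale per gene) in the 4 gated classes and in free RNA (open symbols), one symbol per library with its exact 95% Poisson interval, which covers counting error only. The OE-Vector 1 diamond lies above the OE-MLKL symbols for 8 of 9 genes in neutrophils (15.9% of all genes) and 7 of 9 in macrophages (17.8% of all genes), and Ndrg1 has its highest values, 299 to 546 CPM, in cancer cells.

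Egln3, the HIF prolyl hydroxylase (ENSMUSG00000035105, chromosome 12, 54178981 to 54203860, minus strand), was highest in neutrophils in all 4 libraries. It read 237 CPM in neutrophils of OE-Vector 1 and 53.6, 105.8 and 138.5 CPM in OE-MLKL 1, 2 and 3. Cancer cells held 84.4 CPM in OE-Vector 1 and 26.4, 27.3 and 79.2 CPM in the OE-MLKL libraries, so OE-MLKL 3 lay near OE-Vector 1 and far from the other two. The macrophage values were 56.7 CPM in OE-Vector 1 and 13.6, 11.0 and 27.7 CPM in the OE-MLKL libraries. In T cells, where the lowest reading rested on 22 UMIs, the level was 25.5 CPM against 9.26, 10.47 and 15.4 CPM. OE-Vector 1 was above every OE-MLKL library in each of the 4 classes, and OE-MLKL 3 was the nearest to it in each. Free RNA held 91.1 CPM of Egln3 in OE-Vector 1 and 32.2, 38.0 and 58.9 CPM in OE-MLKL 1, 2 and 3. The macrophage and T cell values lay below it in each library. On the log2 scale the fitted difference, OE-MLKL over OE-Vector, was -1.52 ± 0.48 (SE) in neutrophils and -1.82 ± 0.45 in macrophages. It was -1.15 ± 0.34 in T cells and -1.10 ± 0.52 in cancer cells. These SE and those below hold no spread between OE-Vector tumours.

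Hilpda, the lipid-droplet gene (ENSMUSG00000043421, chromosome 6, 29272488 to 29275446, plus strand), differed most between the labels in neutrophils. Its neutrophil level was 249 CPM in OE-Vector 1 (95% counting interval 239 to 259) and 52.9, 50.2 and 46.3 CPM in OE-MLKL 1, 2 and 3. The 3 OE-MLKL libraries lay close together, and the fitted difference was -2.57 ± 0.28. Macrophages of OE-Vector 1 held 189.7 CPM, with 91.6, 34.1 and 53.6 CPM in the OE-MLKL libraries, a difference of -1.77 ± 0.50. T cells read 107.8 CPM against 55.1, 63.3 and 87.5 CPM. Cancer cells held the least Hilpda on average, with 35.4 CPM in OE-Vector 1 and 41.3, 36.0 and 27.1 CPM in the OE-MLKL libraries, and their range did not overlap that of T cells. OE-Vector 1 lay inside the OE-MLKL range in cancer cells and above it in the other classes. Free RNA held 120.7 CPM of Hilpda in OE-Vector 1 and 43.0 to 61.1 CPM in the OE-MLKL libraries, so it moved with the label in the same direction.

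Slc2a1, the glucose transporter (ENSMUSG00000028645, chromosome 4, 119108711 to 119137983, plus strand), was highest in neutrophils in all 4 libraries, at 148 CPM in OE-Vector 1 and 97.6, 72.3 and 101.1 CPM in OE-MLKL 1, 2 and 3. Macrophages held 75.1 CPM in OE-Vector 1 and 28.1, 28.1 and 50.4 CPM in the OE-MLKL libraries. In cancer cells the values were 27.6 CPM and 22.3, 23.0 and 30.1 CPM, with OE-Vector 1 inside the OE-MLKL range. T cells read 32.5 CPM and 17.3, 20.1 and 24.3 CPM. The fitted log2 difference was -0.97 ± 0.32 in neutrophils, -1.20 ± 0.35 in macrophages, -0.70 ± 0.30 in T cells and -0.26 ± 0.25 in cancer cells. Gm12867, Gm12868 and Mir1957a overlap this gene.

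Pdk1, the pyruvate dehydrogenase kinase (ENSMUSG00000006494, chromosome 2, 71873224 to 71903858, plus strand), differed little between the classes. Macrophages held 37.7 CPM in OE-Vector 1 and 33.5, 35.5 and 41.5 CPM in OE-MLKL 1, 2 and 3. Cancer cells held 25.3 CPM and 26.6, 23.1 and 33.5 CPM, and T cells 28.3 CPM and 36.2, 26.6 and 23.2 CPM. In these classes OE-Vector 1 lay inside the OE-MLKL range, with log2 differences of -0.15 ± 0.26, 0.01 ± 0.27 and 0.01 ± 0.39. Neutrophils held the least on average, 30.1 CPM in OE-Vector 1 and 18.4, 20.3 and 21.1 CPM in the OE-MLKL libraries, with a difference of -0.85 ± 0.26.

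Bnip3, the mitophagy receptor (ENSMUSG00000078566, chromosome 7, 138890836 to 138909519, minus strand), stood at 200.4 CPM in neutrophils of OE-Vector 1 and at 88.7, 93.7 and 101.5 CPM in OE-MLKL 1, 2 and 3. In macrophages it stood at 163.5 CPM and at 111.4, 62.9 and 84.1 CPM. The 2 myeloid classes were close and their ranges overlapped. Cancer cells held 54.1 CPM in OE-Vector 1 and 68.5, 35.2 and 56.0 CPM in the OE-MLKL libraries, and T cells 36.8 CPM and 10.1, 10.47 and 22.0 CPM. The log2 difference was -1.34 ± 0.27 in neutrophils, -1.03 ± 0.37 in macrophages, -1.41 ± 0.37 in T cells and -0.13 ± 0.40 in cancer cells. Gm18258 and Gm45507 lie over Bnip3 on the other strand.

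Ero1l, the oxidase of the endoplasmic reticulum (ENSMUSG00000021831, chromosome 14, 45283087 to 45318771, minus strand), was highest in neutrophils in all 4 libraries. Its neutrophil level was 288 CPM in OE-Vector 1 and 55.6, 62.7 and 92.6 CPM in OE-MLKL 1, 2 and 3, a log2 difference of -2.30 ± 0.34. In macrophages it was 150.1 CPM and 40.5, 34.4 and 69.0 CPM, a difference of -1.77 ± 0.37. OE-Vector 1 lay above every OE-MLKL library in both classes and in T cells, where the values were 78.0 CPM and 34.9, 41.9 and 56.9 CPM. Cancer cells held 55.9 CPM in OE-Vector 1 and 36.1, 32.8 and 79.0 CPM in the OE-MLKL libraries, with OE-MLKL 3 the highest and a difference of -0.34 ± 0.43. Ero1l in free RNA was 117.7 CPM in OE-Vector 1 and 40.3 to 63.9 CPM in the OE-MLKL libraries.

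P4ha1, the collagen prolyl hydroxylase (ENSMUSG00000019916, chromosome 10, 59323296 to 59373304, plus strand), was highest in cancer cells in all 4 libraries. The cancer cell level was 151.1 CPM in OE-Vector 1 and 52.9, 53.2 and 133.5 CPM in OE-MLKL 1, 2 and 3. Macrophages held 133 CPM and 34.3, 47.7 and 101.1 CPM, and neutrophils 105.5 CPM and 20.3, 25.4 and 52.0 CPM. T cells read 55.3 CPM and 13.0, 16.6 and 36.1 CPM. In every class OE-Vector 1 was the highest and OE-MLKL 3 the second. Free RNA held 102.2 CPM of P4ha1 in OE-Vector 1 and 43.0, 41.8 and 78.95 CPM in OE-MLKL 1, 2 and 3, in the same order. The T cell values lay below free RNA in each library, and the neutrophil values in the OE-MLKL libraries. The macrophage value lay below it in OE-MLKL 1 only, and the cancer cell values lay above it in each library. The log2 differences were -1.08 ± 0.46 in cancer cells, -1.26 ± 0.50 in macrophages, -1.96 ± 0.48 in neutrophils and -1.38 ± 0.40 in T cells.

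Adm, adrenomedullin (ENSMUSG00000030790, chromosome 7, 110627661 to 110629820, plus strand), was the scarcest of the genes. In macrophages it stood at 13.3 CPM in OE-Vector 1 and at 1.78, 1.13 and 2.57 CPM in OE-MLKL 1, 2 and 3, from 219 UMIs against 21, 14 and 54. The log2 difference in macrophages was -2.96 ± 0.45, the lowest of any member and class. Cancer cells held 4.08 CPM and 3.70, 1.43 and 2.80 CPM, and neutrophils, with 16 UMIs or fewer per library, 1.74 CPM and 3.102, 0.26 and 0.93 CPM. In T cells there were 1 to 7 UMIs per library, and Adm did not pass the filter on low counts there. Gm28863 lies over Adm on the other strand.

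Ndrg1 (ENSMUSG00000005125, chromosome 15, 66929318 to 66969640, minus strand) had another pattern. It was highest in cancer cells in all 4 libraries, at 299 CPM in OE-Vector 1 and 546, 434 and 467 CPM in OE-MLKL 1, 2 and 3, and made up 55.9% of all member UMIs there (40.6% to 66.3% over libraries). Neutrophils followed with 119 CPM and 102.6, 91.3 and 106.2 CPM, without overlap with cancer cells above or macrophages below. Macrophages held 57.0 CPM and 72.5, 58.2 and 46.6 CPM, and T cells 28.8 CPM and 61.8, 38.0 and 51.5 CPM. OE-Vector 1 lay below the OE-MLKL libraries in cancer cells and T cells and above them in neutrophils, with log2 differences of 0.59 ± 0.37, 0.79 ± 0.39 and -0.51 ± 0.29, and inside their range in macrophages at -0.05 ± 0.35. In free RNA Ndrg1 stood at 243 CPM in OE-Vector 1 and at 429, 340.4 and 246 CPM in the OE-MLKL libraries. All neutrophil, macrophage and T cell readings lay far below it. Gm17035 and Gm2895 lie over Ndrg1 on the other strand.

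Across the genes, OE-Vector 1 lay above all 3 OE-MLKL libraries for 8 of 9 in neutrophils, the exception being Adm, against 15.9% of all genes tested there. In macrophages this held for 7 of 9, all but Ndrg1 and Pdk1, against 17.8% of all genes. In T cells it held for 6 of the 8 tested, against 18.7%, and in cancer cells for 3 of 9, Adm, Egln3 and P4ha1, against 17.8%. The opposite order, OE-Vector 1 below all the others, was met for Ndrg1 in cancer cells (32.6% of all genes) and in T cells (24.9%), and for no member in macrophages (35.8%) or neutrophils (43.8%). CPM are moved by the bulk of each library: with TMM-scaled CPM the share of all neutrophil genes with OE-Vector 1 above became 29% and below 26.8%, and the members above stayed at 8. In macrophages TMM scaling gave 8 members above, with 26% of all genes above and 27% below. Against OE-MLKL 1 and 2 alone, OE-Vector 1 was the highest for 5 members in cancer cells (38.1% of all genes), 8 in macrophages (31%), 8 in neutrophils (28.6%) and 6 in T cells (42.7%). Against OE-MLKL 1 and 3 alone, 3 members in cancer cells had OE-Vector 1 below (39.1% of all genes). Other lists moved with the label too, and their part in these counts was not tested. The 15 cancer markers summed to 4511 CPM in cancer cells of OE-Vector 1 against 2734 to 3664 CPM in the OE-MLKL libraries. In T cells the 10 T cell markers summed to 5980 against 4646 to 5236 CPM. All 9 dissociation and stress genes were detected, and they summed to 3682 CPM in macrophages of OE-Vector 1 against 5210 to 7348 CPM in the OE-MLKL libraries, and to 4352 against 5881 to 10170 CPM in cancer cells. In neutrophils the 13030 CPM of OE-Vector 1 lay inside the OE-MLKL range of 10510 to 14160 CPM. Also in neutrophils, the 6 fibroblast genes summed to 55.6 CPM in OE-Vector 1 against 138.4 to 266.1 CPM, the 10 macrophage markers to 1574 against 1979 to 2554 CPM, the 10 neutrophil markers to 72930 against 76330 to 84690 CPM, and the 6 endothelial genes to 23.8 against 10.8 to 13.5 CPM. In macrophages the endothelial genes summed to 47.1 CPM in OE-Vector 1 against 9.43 to 27.6 CPM and the macrophage markers to 33850 against 36210 to 40960 CPM. None of these lists had a gene at 0. All 4 monocyte markers were detected, and they summed to 310 CPM in macrophages of OE-Vector 1 and to 1484, 1200 and 356 CPM in OE-MLKL 1, 2 and 3. In cancer cells the monocyte markers summed to 722 CPM in OE-Vector 1 and 306 to 429 CPM in the OE-MLKL libraries, and the 4 haemoglobin genes to 28.9 CPM against at most 0.318 CPM, with up to 1 of the 4 at 0. In T cells the 6 acinar genes, all detected, summed to 469.6 CPM in OE-Vector 1 and to 61.4, 40.1 and 291.5 CPM in OE-MLKL 1, 2 and 3, and the 6 fibroblast genes, all detected, to 166.8 CPM and to 68.6, 17.9 and 67.8 CPM. The median log2 difference of the members was -1.34 in neutrophils, -1.26 in macrophages, -0.77 in T cells and -0.26 in cancer cells, while over all tested genes it was 0.03, 0.04, 0.02 and 0.03.

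Because the members were selected with results known, the calls below are given as counts beside those over all genes and nothing is read from them about the members. No member passed the threshold of edgeR's quasi-likelihood test on summed counts, at an adjusted p under 0.05 over all genes tested. That test called 1 of 17477 genes in cancer cells (0.00572%), 2 of 13685 in macrophages (0.0146%), 0 of 13268 in neutrophils (0%) and 1 of 11547 in T cells (0.00866%), from 2 residual degrees of freedom that come from the OE-MLKL libraries alone. At an unadjusted p under 0.05 there were 802, 777, 1123 and 550 genes in cancer cells, macrophages, neutrophils and T cells. DESeq2 called 104 genes in cancer cells (0.595%), 64 in macrophages (0.468%), 90 in neutrophils (0.678%) and 9 in T cells (0.0779%). Its calls held Adm and Ero1l in macrophages and Hilpda and Ero1l in neutrophils, all lower in OE-MLKL, and no member in the other classes. The edgeR calls depended on single libraries. Without OE-MLKL 3 the test called 589 genes in cancer cells (3.46%), 243 in macrophages (1.84%), 1664 in neutrophils (13.1%) and 859 in T cells (7.96%). Among these were P4ha1 and Egln3 in cancer cells, Slc2a1, Adm, P4ha1, Egln3 and Ero1l in macrophages, and the 7 members other than Adm and Ndrg1 in neutrophils, all lower in OE-MLKL. In T cells they were Hilpda, Bnip3, P4ha1, Egln3 and Ero1l, lower, and Ndrg1, higher. Without OE-MLKL 1 the calls numbered 118, 47, 2 and 32 in cancer cells, macrophages, neutrophils and T cells, with Hilpda and Adm among those in macrophages (0.343% of genes), and without OE-MLKL 2 they numbered 17, 0, 5 and 25, with no member. With no filter on low counts, Adm was called in macrophages among 17 genes (0.0842%) and Hilpda in neutrophils among 8 (0.0398%).

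**Figure D2:**
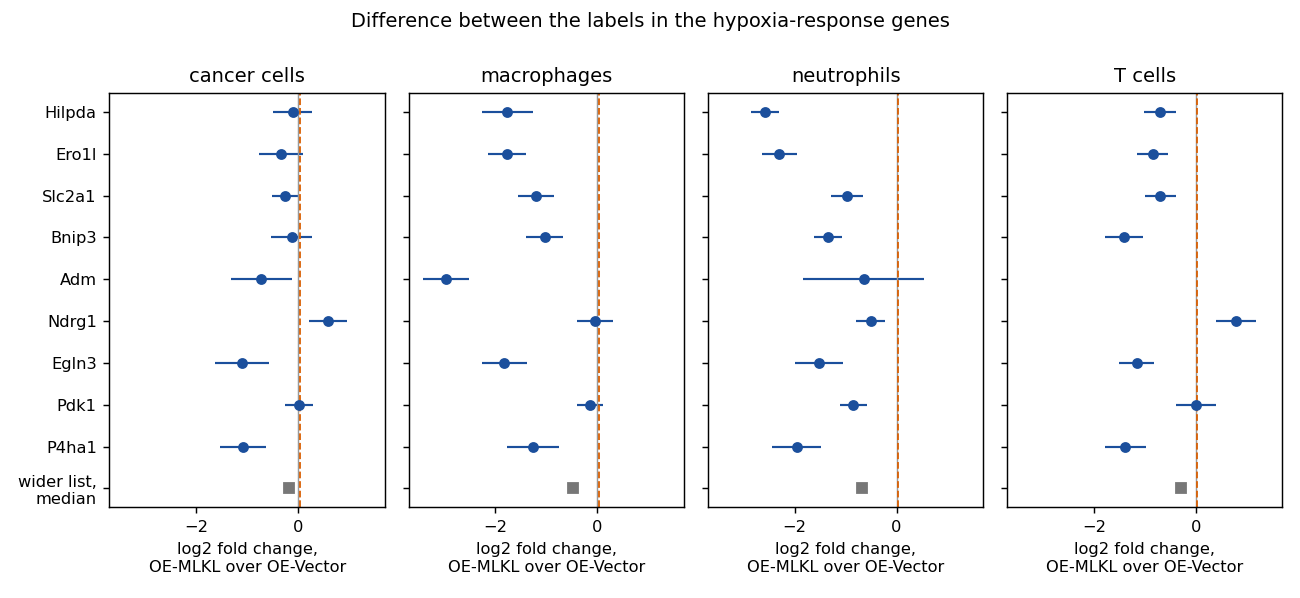
Log2 fold change of each gene, OE-MLKL over OE-Vector (horizontal axis), in the 4 gated classes, with points for the edgeR estimate and bars for 1 standard error; the grey square is the median of the wider hypoxia list and the dashed line the median of all tested genes. All 9 genes lie left of 0 in macrophages and neutrophils, as do 46.3% and 47.7% of all genes tested there. The lowest points are -2.96 for Adm in macrophages and -2.57 for Hilpda in neutrophils, while Ndrg1 lies right of 0 in cancer cells and T cells.

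The neutrophils of the labels also differed in another respect. The monocyte markers Ly6c2, Ccr2, Plac8 and Chil3 summed to 547 CPM in gated neutrophils of OE-Vector 1 and to 7510, 8834 and 2889 CPM in OE-MLKL 1, 2 and 3. Chil3, a chitinase-like protein that maturing neutrophils also make, gave 12.6% of these UMIs in OE-Vector 1 and 95.7%, 96.7% and 87.2% in the OE-MLKL libraries. After thinning to 500 UMIs, 17.1% of OE-Vector 1 neutrophils and 91.9%, 90.8% and 58.4% of OE-MLKL neutrophils held a UMI of the list. Among neutrophils with such a UMI the 9 genes summed to 1150 CPM in OE-Vector 1 and to 458, 488 and 625 CPM in the OE-MLKL libraries. Among those without it they summed to 1357 CPM and to 598, 723 and 659 CPM. The log2 ratio of the sum, OE-MLKL mean over OE-Vector 1, was -1.14 with and -1.04 without the list. Cells with a UMI of the list were not alike between the labels, since in OE-Vector 1 Plac8 gave 64.7% and Ly6c2 21.6% of its UMIs. The part of the list in the members' difference was not tested. The split was added after the data were seen.

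**Figure D3:**
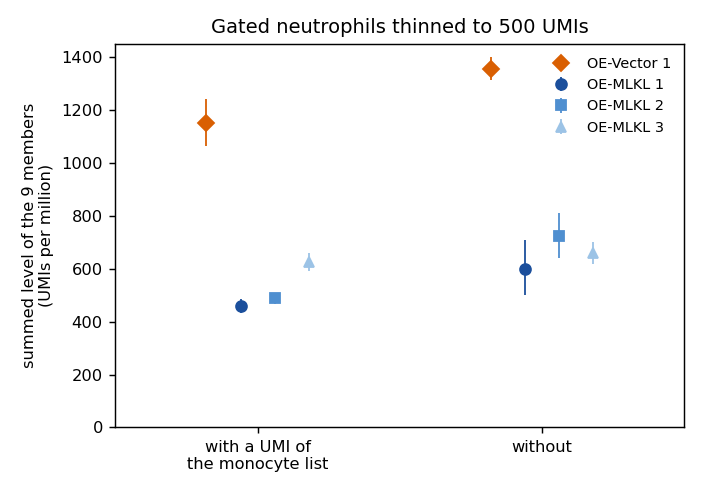
Summed level of the 9 genes (CPM, from 0) in gated neutrophils thinned to 500 UMIs, split by whether the cell held a UMI of the monocyte list; one symbol per library with an exact 95% Poisson interval for counting error. OE-Vector 1 stands at 1150 and 1357 CPM, and the OE-MLKL libraries between 458 and 723 CPM.

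The share of cells holding a member, or several, was also read. With every cell thinned to 500 UMIs, 38.4% of neutrophils in OE-Vector 1 held at least 1 member UMI, against 19.9%, 20.9% and 26.0% in OE-MLKL 1, 2 and 3. In macrophages the shares were 29.2% and 16.8%, 12.4% and 19.8%. Cancer cells gave 28.4% in OE-Vector 1 and 31.4%, 26.1% and 32.1% in the OE-MLKL libraries, and T cells 16.2% and 12.5%, 10.6% and 15.9%. With cells thinned to 1000 UMIs, shallower cells drop out, which kept 4864 of 6532 neutrophils in OE-Vector 1, 1228 of 5410 in OE-MLKL 1, 2080 of 8680 in OE-MLKL 2 and 6235 of 6889 in OE-MLKL 3. Of the neutrophils kept, 25.1% in OE-Vector 1 held 2 or more of the 9 genes, against 7.17%, 8.46% and 10.9% in the OE-MLKL libraries. Of the macrophages kept, those holding 2 or more made up 17.0% and 5.58%, 4.03% and 7.30%. In cancer cells the shares were 12.7% and 11.1%, 7.64% and 14.3%, with OE-Vector 1 inside the OE-MLKL range. Without thinning, the mean share of cells with a member UMI over the 4 libraries was 96.6% in cancer cells, 77.8% in macrophages, 45.3% in neutrophils and 57.3% in T cells, which follows the depth of the classes.

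In cancer cells and in both myeloid classes most of the genes tended to be found in the same cells. In macrophages thinned to 1000 UMIs, cells with a Hilpda UMI carried 3.03 times the other 8 members of cells without one in OE-Vector 1, and 2.03, 2.36 and 2.68 times in OE-MLKL 1, 2 and 3. In neutrophils the ratios were 2.67 in OE-Vector 1 and 2.04, 2.96 and 1.61, and in cancer cells 1.69 and 1.23, 1.15 and 1.76. Ribosomal protein genes, taken as a reference, gave 0.899 to 1.10 in these 3 classes. For Egln3 in macrophages the ratio was 3.002 to 3.42 over the 4 libraries at 1000 UMIs and 2.17 to 4.49 at 500 UMIs, with as few as 22 and 15 Egln3-positive cells in a library. In neutrophils Ndrg1 stood apart from the others: cells with an Ndrg1 UMI carried 0.852 to 1.07 times the other members. Glucose metabolism genes of the wider list were 1.37 to 1.82 times as high in Hilpda-positive macrophages and 1.35 to 1.84 times in Hilpda-positive neutrophils. Cancer-marker UMIs made up 0.0200% to 0.0317% of the UMIs of macrophages with 2 or more members and 0.0197% to 0.0371% in those with none. The macrophages with 2 or more members held fewer UMIs of the macrophage markers, 3.21% to 3.53% against 3.59% to 4.56%, and fewer mitochondrial UMIs, 3.11% to 3.97% against 3.97% to 4.79%, in each library. Neutrophils with 2 or more members held more cancer-marker UMIs than those with none in each library, 0.0307% to 0.0468% against 0.0281% to 0.0450%, and fewer neutrophil-marker UMIs, 6.93% to 7.83% against 7.61% to 10.29%. The part of these differences in the ratios was not tested. In macrophages Pdk1 gave 0.998 to 1.86 at 1000 UMIs, and at 500 UMIs Pdk1, P4ha1 and Ndrg1 were above 1 in 3 of 4 libraries, with lowest ratios of 0.727, 0.707 and 0.940. In T cells Hilpda gave 1.10 to 2.65 and Slc2a1 1.18 to 3.28, both above 1 in all 4 libraries. Bnip3, Ndrg1, Egln3, Pdk1 and P4ha1 were above 1 in 3 of 4 libraries, and Ero1l in 2 of 4. Ndrg1 and Pdk1 went down to 0.557, and Egln3 and P4ha1 to 0. As few as 5, 6 and 7 T cells per library held Bnip3, Egln3 and P4ha1. At 500 UMIs Hilpda was above 1 in 3 of 4 libraries and Ero1l in 1. T cells with 2 or more members numbered 8 to 61 per library.

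**Figure D4:**
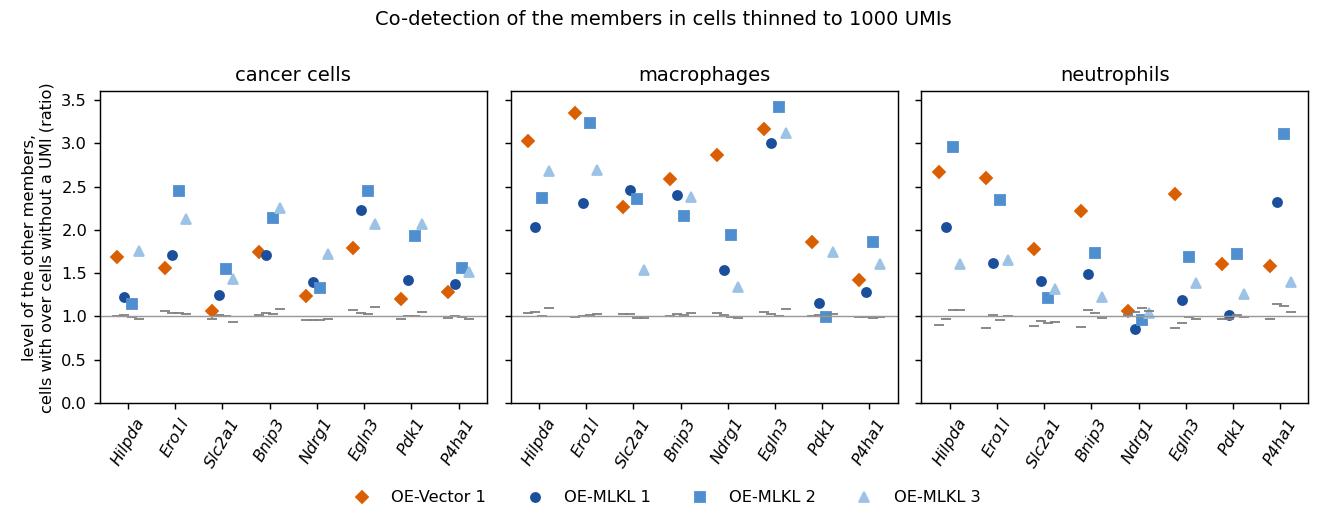
Level of the other 8 members in cells with a UMI of the named gene, divided by that in cells without one (vertical axis, ratio), in cells thinned to 1000 UMIs; symbols are libraries and grey dashes the same ratio for ribosomal protein genes. Adm is left out because as few as 1 cell per library held it. Hilpda and Ero1l lie above 1 in every library and class shown, Egln3 reaches 3.002 to 3.42 in macrophages, and Ndrg1 lies at about 1 in neutrophils.

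Cells with 2 or more members were compared with cells holding none. Only other genes were compared that had at least 10 thinned UMIs in the cells with 2 or more members in every library. In the cells with none, any UMI per library was enough. The limit thus favours genes that are high in cells with 2 or more members, and its part in the ratios was not tested. The genes compared were 5045 in cancer cells, 1413 in macrophages, 1437 in neutrophils and 115 in T cells. The 10 genes with the highest ratio, read at its lowest over the 4 libraries, differed between classes. The part of the unequal gene sets in this difference was not tested. In cancer cells they included Ankrd37 (2.44 to 6.59 times), 2610528A11Rik (2.1 to 5.81), the collagen hydroxylase P4ha2 (1.94 to 2.47) and the haem oxygenase Hmox1 (1.93 to 3.73). The glycolytic enzymes Pgk1 (1.64 to 2.68) and Pfkl were also among them, as was Pgm1. In macrophages they included the elastase Mmp12 (11.9 to 47.0 times), the cationic amino acid transporter Slc7a2 (3.11 to 10.3), the arginase Arg1 (2.92 to 6.67) and Hmox1 (2.37 to 5.49). Mmp12 is also among the genes called in macrophages, with a log2 difference of -4.31 between the labels. Neutrophils with 2 or more members carried more of the coagulation factor gene F10 (2.54 to 4.39 times), Mif (2.05 to 2.87), Tpi1 (2.03 to 2.63) and Hk2 (1.73 to 3.27). In T cells, where only 115 genes met the limit, the list held Ldha (1.49 to 2.83). The rest were mostly abundant genes such as B2m and Rpl6 with ratios near 1. Over the genes compared, the median lowest ratio was 0.83, 0.81, 0.84 and 0.82 in cancer cells, macrophages, neutrophils and T cells. The median highest ratio was 1.18, 1.21, 1.19 and 1.12 in the same order. Since the cells were picked by members, the ratios are descriptions.

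A wider list of 55 genes of oxygen sensing and hypoxia, fixed with earlier results known, was followed in the same fits, and edgeR called 0 of the genes tested in each class. DESeq2 called 1 of the list in cancer cells, 6 in macrophages, 5 in neutrophils and 0 in T cells (0.595%, 0.468%, 0.678% and 0.0779% of all genes), and edgeR without OE-MLKL 3 called 4, 8, 23 and 5 (3.46%, 1.84%, 13.1% and 7.96%). OE-Vector 1 lay above all OE-MLKL libraries for 27 of 52 tested genes in neutrophils, 27 of 52 in macrophages, 20 of 47 in T cells and 14 of 54 in cancer cells, against 15.9%, 17.8%, 18.7% and 17.8% of all genes. It lay below all of them for 9, 6, 5 and 10, against 43.8%, 35.8%, 24.9% and 32.6%. The median log2 difference was -0.67, -0.47, -0.29 and -0.17 in the same order. Of the glucose metabolism genes, 15 of 15 had a negative log2 difference in neutrophils, where 47.7% of all genes did, with OE-Vector 1 above for 12 and a median of -1.17. The feedback and transcription genes were close to this in neutrophils, with 11 of 12 negative, OE-Vector 1 above for 9 and a median of -1.06. The other roles were not so placed in neutrophils: mitochondria and autophagy had 3 of 6 negative and a median of 0.05, matrix had OE-Vector 1 above for 0 and below for 3 of 6, oxygen sensing had 5 of 7 negative with a median of -0.11, the secreted factors had 3 of 5 negative with a median of -0.35, and the 1 acid-handling gene tested gave 2.41. In macrophages 13 of 15 glucose metabolism genes were negative, against 46.3% of all genes, 11 with OE-Vector 1 above and a median of -0.90. There 11 of 12 feedback and transcription genes were negative, 5 with OE-Vector 1 above. In T cells 13 of 15 glucose metabolism genes were negative, against 47.65% of all genes, 10 with OE-Vector 1 above and a median of -0.48. There 8 of 11 feedback and transcription genes were negative, 2 with OE-Vector 1 above. In cancer cells 13 of 15 glucose metabolism genes were negative, against 47.6% of all genes, but OE-Vector 1 was above for 4 and the median was -0.27.

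Pgk1, a phosphoglycerate kinase, read 444.5 CPM in neutrophils of OE-Vector 1 and 102.2, 129.5 and 194.3 CPM in OE-MLKL 1, 2 and 3, a log2 difference of -1.91 ± 0.38. Slc16a3, the lactate exporter, read 499.9 CPM and 119.1, 107.4 and 302 CPM in neutrophils, and 144.8 CPM and 37.8, 40.7 and 68.4 CPM in macrophages. In cancer cells Pgk1 was even, at 328 CPM in OE-Vector 1 and 292, 335 and 294 CPM in the OE-MLKL libraries. Ankrd37, a small HIF target, gave the lowest log2 difference of the list in neutrophils, -2.22 ± 0.28, from 150.3 CPM and 32.5, 36.7 and 46.6 CPM. Fam162a, a mitochondrial target, had negative log2 differences in each class, -1.69 ± 0.29 in macrophages and -0.65 ± 0.29 in cancer cells. Vegfa, the vascular growth factor, followed OE-MLKL 3: macrophages held 118.5 CPM in OE-Vector 1, 24.1 and 12.5 CPM in OE-MLKL 1 and 2, and 103.7 CPM in OE-MLKL 3.

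Among the oxygen-sensing genes, Hif1a, the regulated subunit, gave log2 differences of -0.25 to -0.36 in the 4 classes, and OE-Vector 1 lay inside the OE-MLKL range in cancer cells, macrophages and neutrophils. Its partner Arnt lay between -0.03 and 0.41. Egln1, the main HIF hydroxylase, read 117.2 CPM in macrophages of OE-Vector 1 and 60.7, 57.5 and 71.2 CPM in the OE-MLKL libraries, a difference of -1.01 ± 0.25, while Egln2 gave 0.30 ± 0.35 there. In neutrophils Egln1 gave -0.78 ± 0.28. Vhl gave -0.94 ± 0.26 in neutrophils and -0.72 ± 0.25 in macrophages, with OE-Vector 1 above every OE-MLKL library in both. Some listed genes went the other way: Car9, the cell-surface carbonic anhydrase, read 3.42 CPM in cancer cells of OE-Vector 1 and 7.58, 6.30 and 14.1 CPM in the OE-MLKL libraries (1.30 ± 0.49). In T cells Ddit4, a stress-induced inhibitor of growth signalling, read 57.3 CPM and 136.3, 123.9 and 97.8 CPM (1.05 ± 0.41). None of these passed the test.

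The genes most like the 9 in their pattern over the 16 sums of class and library were Map2k1 (Pearson r = 0.91), Dtx4 (0.90), Smox (0.90), Oasl1 (0.88), Alkbh5 (0.86), Basp1 (0.86), Usp18 (0.84), Pgam1 (0.84), Irgm1 (0.84) and Plin2 (0.84), among 10672 genes with a mean of at least 5 CPM. Pgam1 is a glycolytic mutase, Plin2 coats lipid droplets, and Usp18, Oasl1 and Irgm1 are interferon-induced. The 16 sums come from 4 libraries and share their depth and free RNA, so the values of r are descriptions.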

How the data were processed

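The authors aligned and counted the reads with Cell Ranger (version 7.1.0 in the matrix headers, 2.1.1 in the submitters' processing notes) on mm10. Their published methods name a further version, different from both. The deposited matrices hold raw UMI counts per gene and barcode, without normalization. Whether intronic reads were counted is not given in the sources used here. Replicates are separate tumours by their labels. The members, marker lists and wider list were chosen with earlier results of these data known.

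From the counts, cells with at least 500 UMIs, more than 200 genes, under 10% mitochondrial and under 5% haemoglobin UMIs were kept. A class required 3 detected markers (4 for macrophages) and marker UMIs of at least 0.15% of the cell for cancer cells, 1.5% for macrophages, 1% for neutrophils and 0.2% for T cells. These limits were set on the marker distributions. Cells with markers of 2 classes, the only treatment of doublets, were left out. UMIs were summed per class and library, and CPM are counts per 1000000 UMIs of those sums. Each class was fitted over all genes with edgeR 4.0.16 (R 4.3.3; TMM, filterByExpr, quasi-likelihood test, Benjamini-Hochberg adjustment). The SE of a log2 difference was taken as its absolute value divided by the square root of the quasi-likelihood F. The spread comes from the OE-MLKL libraries alone, so the SE holds none between OE-Vector tumours. DESeq2 1.42.0, no filter, stricter gates, 1000 UMIs per cell, under 5% mitochondrial UMIs and leaving out each OE-MLKL library were alternatives. The scripts were tested on simulated data. Poisson intervals are exact and 95%, and cover counting error only. Shares were taken after thinning cells to 500 or 1000 UMIs. Genes named are the 9 members, the wider list and the 10 most like the members over the 16 sums. For each class the 10 genes with the highest ratio between cells with 2 or more members and cells with none are also named. These needed at least 10 thinned UMIs in the cells with 2 or more members in every library. Other genes called in the report's fits were Hbb-bs in cancer cells, Apol7c in macrophages and Il13 in T cells. Coordinates are from GENCODE on GRCm38 and promoters from RefSeq. The values of 1 gene of the wider list are not reported here, although it is part of the counts and medians of that list.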

Additional observations from a re-analysis of the deposited data

Results flagged for a closer look

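Ndrg1 was the member whose order between the labels turned between classes. Every library labelled OE-MLKL lay above OE-Vector 1 in cancer cells (log2 difference 0.59 ± 0.37) and in T cells (0.79 ± 0.39), and every one lay below it in neutrophils (-0.51 ± 0.29). Within single classes, OE-Vector 1 lay below all the others for 32.6% of all genes in cancer cells and 24.9% in T cells. It lay above them for 15.9% in neutrophils. How many genes turned in the same way between classes was not counted. The difference between the classes was not tested, and it rests on a single OE-Vector tumour. Ndrg1 in free RNA was 243 CPM in OE-Vector 1 and 429, 340.4 and 246 CPM in OE-MLKL 1, 2 and 3. The neutrophil and T cell values lay below it in each library, and the part of free RNA in them was not tested.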

How the results depend on the processing

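No paired analysis was possible because the analysed libraries of the 2 labels share only replicate number 1. The number of genes called by edgeR depended on the libraries and the settings. Leaving out 1 OE-MLKL library at a time gave 17 to 589 genes in cancer cells, 0 to 243 in macrophages, 2 to 1664 in neutrophils and 25 to 859 in T cells, in each class the most without OE-MLKL 3. DESeq2 gave 104, 64, 90 and 9. With no low-count filter edgeR called 17 genes in macrophages, 8 in neutrophils and 50 in T cells. The stricter gate gave 0 in macrophages and 0 in T cells, under 5% mitochondrial UMIs gave 0 in cancer cells and 4 in T cells, and 1000 UMIs per cell gave 1 in neutrophils. The cause was not tested. The median log2 difference of the members without 1 OE-MLKL library was -0.30 to -0.14 in cancer cells, -1.66 to -1.13 in macrophages, -1.37 to -1.30 in neutrophils and -0.87 to -0.70 in T cells. Under 5% mitochondrial UMIs it was -0.46 in cancer cells, against -0.26. The count of members with OE-Vector 1 above the OE-MLKL libraries in cancer cells was 3 to 5, the highest without OE-MLKL 3, where 38.1% of all genes were above. Of 315 alternative values of single members, 309 moved by less than 1 standard error and 10 changed sign, those of Hilpda, Bnip3 and Pdk1 in cancer cells, Ndrg1 in macrophages and Pdk1 in T cells, none of them called. Depth limits Adm, which gave at most 16 UMIs per library in neutrophils and T cells and 14 to 219 in macrophages.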
